A study of Rattus norvegicus with 9 samples.

Results

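The genes described here are the 3 classical opioid receptor genes (Oprm1, mu; Oprd1, delta; Oprk1, kappa), the nociceptin receptor gene Oprl1, and Pnoc, which encodes the nociceptin precursor. They were taken by symbol from the gene count table, where each of the 5 had 1 row, out of 30507 rows in all. The table came from RNA-seq of the spinal cord of female Sprague-Dawley rats, labelled wild-type, in 3 groups of 3 libraries. Sham rats had a laminectomy only by the study's methods, although their labels read no treatment. SCI rats had a contusion at T10. SCI + SCS rats had the same contusion and an epidural electrode whose contacts lay at T11 to T12, with stimulation at 10 kHz for 2 h daily from 1 day post-injury (dpi). The rats were 8 weeks old when obtained, and RNA was taken from whole tissue of segments T9 to T11 at 35 dpi. SCI rats carried only an external plug, and injured rats with an electrode but no current were not analysed here, so the current and the electrode cannot be told apart in the comparison of SCI + SCS with SCI.

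Opioid receptors are receptors coupled to inhibitory Gi/o proteins. When an agonist binds, the G protein lowers adenylyl cyclase activity, opens inwardly rectifying potassium channels and closes voltage-gated calcium channels, which reduces transmitter release and neuronal firing. In the dorsal horn of the spinal cord, enkephalins (from Penk) act mainly on mu and delta receptors and dynorphins (from Pdyn) on kappa receptors. Nociceptin acts on its own receptor, which resembles the opioid receptors in sequence but binds the classical opioid peptides poorly.

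Libraries held between 62844376 and 88358570 counts. Some libraries stood apart from the rest of their group. The summed level of 5 sensory ganglion neuron markers was 159 CPM (counts scaled by library size) in Sham replicate 2 against 4.24 to 12.4 CPM in the other 8 libraries, and the nociceptor sodium channel gene Scn10a had 4873 counts there. The summed level of 5 skeletal muscle genes was 2986 CPM in SCI replicate 1 and 770 CPM in SCI replicate 3, against 6.16 to 41.4 CPM elsewhere. Spinal cord markers were present in every library: all 8 neuron markers and all 6 oligodendrocyte markers had counts in each. The summed neuron markers ranged over 3490 to 6713 CPM in Sham, 609 to 1688 CPM in SCI and 1640 to 2607 CPM in SCI + SCS, and all 8 were lower in SCI than in Sham.

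The 5 genes differed widely in level. Compared per transcript length, as FPKM (fragments scaled by transcript length and by library size), Pnoc was the highest in all 3 groups, followed by Oprl1, Oprk1, Oprd1 and Oprm1. In Sham the mean FPKM was 26.9 ± 6.60 for Pnoc, 4.29 ± 1.52 for Oprl1 and 1.15 ± 0.339 for Oprk1 (SD, n = 3). The delta and mu receptor transcripts were close to the limit of detection, at 0.116 ± 0.0838 FPKM for Oprd1 in Sham, while Oprm1 was listed at 0 in 1 Sham library and at 0.0173 and 0.0804 FPKM in the others. Oprd1 and Oprm1 overlapped in every group, so their order did not exceed the spread between libraries. Oprl1 was separate from Oprk1 in Sham and in SCI + SCS, but in SCI the levels overlapped, at 1.004 ± 0.233 and 0.991 ± 0.381 FPKM (SD, n = 3).

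**Figure D1:**
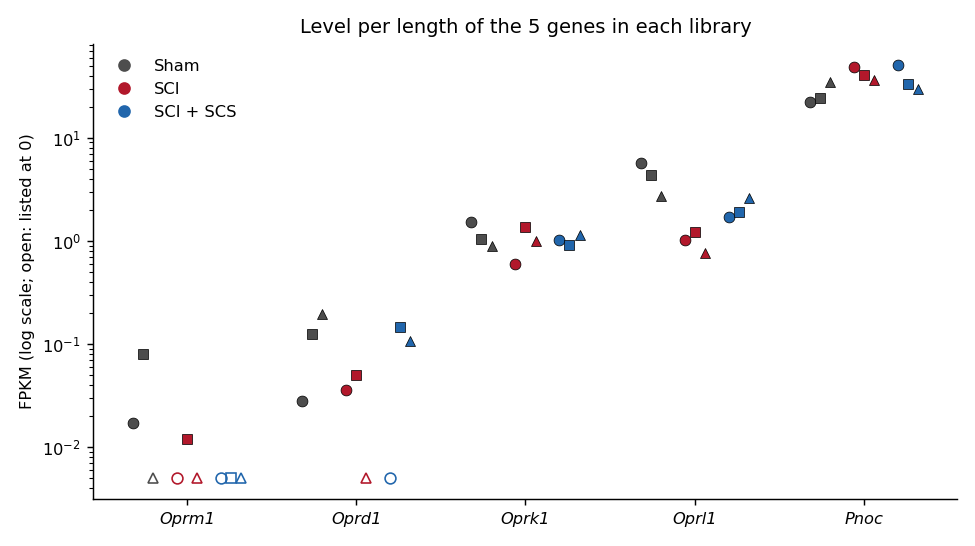
Level of the 5 genes in each of the 9 libraries in FPKM on a log axis, coloured by group, with the circle, square and triangle marking replicates 1, 2 and 3 and open symbols marking libraries listed at 0. Pnoc lies above every receptor gene in all 9 libraries, and Oprl1 falls to the level of Oprk1 in SCI.

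Pnoc encodes the precursor that is cleaved to nociceptin and is located on chromosome 15, 39624641 to 39651867, minus strand (ENSRNOG00000014231; coordinates of mRatBN7.2, as for the other genes). Its level, in CPM scaled by trimmed mean of M values (TMM), was 28.5, 29.8 and 43.8 in the Sham libraries, 68.2, 48.8 and 43.6 in the SCI libraries and 63.004, 41.4 and 36.1 in the SCI + SCS libraries, in the order of replicates 1, 2 and 3. The Sham and SCI libraries were separate but for Sham replicate 3, which lay just above SCI replicate 3, and the SCI + SCS libraries spread across both groups. The group means were 34.0 ± 8.46, 53.5 ± 12.9 and 46.8 ± 14.2 CPM (SD, n = 3).

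Oprl1 encodes the nociceptin receptor and is located on chromosome 3, 168834003 to 168839920, plus strand (ENSRNOG00000016768). Its level was 22.003, 16.1 and 10.3 CPM in Sham, 4.29, 4.44 and 2.78 CPM in SCI and 6.26, 7.08 and 9.53 CPM in SCI + SCS. The 3 groups did not overlap: every SCI library was below every SCI + SCS library, and every SCI + SCS library was below every Sham library. The group means were 16.1 ± 5.87, 3.83 ± 0.918 and 7.62 ± 1.70 CPM (SD, n = 3).

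Oprk1 encodes the kappa opioid receptor, to which dynorphins bind, and is located on chromosome 5, 13860021 to 13877823, minus strand (ENSRNOG00000007647). Its level was 9.26, 6.03 and 5.26 CPM in Sham, 3.97, 7.68 and 5.69 CPM in SCI and 5.93, 5.32 and 6.51 CPM in SCI + SCS. All 3 groups overlapped, and the highest and the lowest of the 9 values were those of Sham replicate 1 and SCI replicate 1. The group means were 6.85 ± 2.12, 5.78 ± 1.86 and 5.92 ± 0.595 CPM (SD, n = 3).

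**Figure D2:**
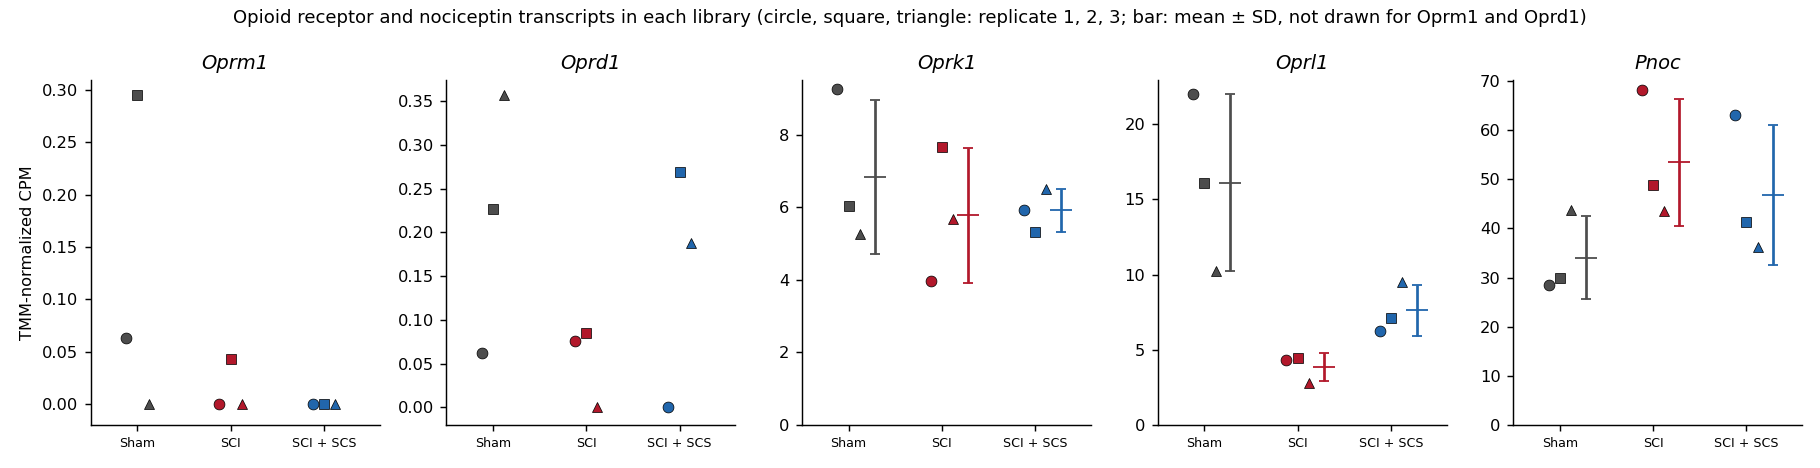
TMM-normalized CPM of each gene (y axis, one scale per gene) in the Sham, SCI and SCI + SCS libraries, with a symbol for each replicate and, for Oprk1, Oprl1 and Pnoc, the mean and SD of 3 libraries beside them. Oprl1 is the gene whose 3 groups do not overlap, and the Oprm1 signal is carried by Sham replicate 2.

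Oprd1, on chromosome 5, 144306188 to 144340960, minus strand (ENSRNOG00000010531), encodes the delta opioid receptor, a receptor for enkephalins. It had 4, 20 and 31 counts in the Sham libraries, 6, 6 and 0 in the SCI libraries and 0, 19 and 12 in the SCI + SCS libraries. A library with 4 counts or fewer was found in each group, so the groups overlapped. Summed over each group and scaled by the library totals, the SCI to Sham ratio was 0.240 (95% interval 0.117 to 0.454) and the SCI + SCS to SCI ratio 2.79 (1.39 to 5.97). These intervals cover counting error only, while the Sham libraries alone ranged from 4 to 31 counts.

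Oprm1, on chromosome 1, 43160057 to 43215420, plus strand (ENSRNOG00000018191), encodes the mu opioid receptor, the main receptor for morphine. It had 4, 26 and 0 counts in the Sham libraries, 0, 3 and 0 in the SCI libraries and 0 in all 3 SCI + SCS libraries. Of the 30 Sham counts, 26 came from Sham replicate 2, the library with the high sensory ganglion markers, and their part in the Oprm1 count was not tested. A count of 0 allows up to 0.0427 to 0.0477 CPM in the SCI + SCS libraries, with 3 counts per library as the limit. Summed over each group, 0 counts in SCI + SCS against 30 in Sham gave a ratio whose 95% interval for counting error alone ran from 0 to 0.156, and with Sham replicate 2 left out only 4 Sham counts remained. A difference in the mu receptor transcript between the groups was thus not detectable at this depth without that library.

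The comparison of SCI with Sham asked which transcripts differed at the injury site 35 days after contusion. Oprl1 was lower in SCI, and the other genes did not pass the test. With edgeR's quasi-likelihood test and Benjamini-Hochberg adjustment over 17822 genes, Oprl1 had a log2 fold change of -2.09 (SE 0.34, 95% interval -2.89 to -1.29, adjusted p = 0.00378), which is 4.26-fold lower. It was the only 1 of the 3 tested members past an adjusted p of 0.05, where 49.4% of all tested genes were past it and 63.6% had groups that did not overlap. In whole tissue, fewer cells that carry a transcript and less of it per cell cannot be told apart. Oprd1 and Oprm1 were under the filter on low counts in this comparison.

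The decrease of Oprl1 did not rest on 1 library. Its log2 fold change was -2.10 without Sham replicate 2 (edgeR adjusted p = 0.0166), -2.18 without SCI replicate 1 (edgeR adjusted p = 0.0130) and -1.91 without SCI replicate 3 (edgeR adjusted p = 0.0153). With both muscle-containing SCI libraries left out it was -1.87 and the call was lost (edgeR adjusted p = 0.0893), in a fit with 1 SCI library that was assumed to vary like Sham, in which 848 genes were called in place of 8796.

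Pnoc was 1.56-fold higher in SCI than in Sham, a log2 fold change of 0.64 (SE 0.23, 95% interval 0.092 to 1.18), and missed the threshold (edgeR adjusted p = 0.0557). The call depended on the tool, since DESeq2 gave an adjusted p of 0.0269 and called 44.4% of its genes. It also depended on Sham replicate 3, the library that overlapped SCI: without it the log2 fold change was 0.85 (edgeR adjusted p = 0.0221). Without SCI replicate 1, which had the most muscle RNA, it was 0.42 (edgeR adjusted p = 0.148).

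Oprk1 had a log2 fold change of -0.26 (SE 0.32, 95% interval -1.04 to 0.51, edgeR adjusted p = 0.522), an interval that holds both decreases and increases. The direction turned to 0.018 without Sham replicate 1.

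The comparison of SCI + SCS with SCI asked which transcripts differed in injured rats that received stimulation. No member passed an adjusted p of 0.05 with edgeR's quasi-likelihood test, in a comparison in which 1 of 17663 genes did (0.00566%) and 24.2% had an unadjusted p under 0.05. Oprl1 had a log2 fold change of 0.999 (SE 0.25, 95% interval 0.41 to 1.59), or 1.999-fold, with all 3 SCI + SCS libraries above all 3 SCI libraries, as in 29.6% of tested genes in either direction. Its unadjusted p was 0.00514 and its edgeR adjusted p 0.0946, while DESeq2, which called 2603 genes (11.8%), gave an adjusted p of 0.00412. Without SCI replicates 1 and 3 the log2 fold change was 0.77 (edgeR adjusted p = 0.316).

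The other members gave small differences between SCI + SCS and SCI. For Pnoc the log2 fold change was -0.18 (SE 0.25, 95% interval -0.77 to 0.40, edgeR adjusted p = 0.688). For Oprk1 it was 0.045 (SE 0.25, 95% interval -0.55 to 0.64, edgeR adjusted p = 0.931). Both changed sign when SCI replicate 1 was left out, to 0.016 for Pnoc and -0.18 for Oprk1, and Oprk1 also at -0.036 without SCI + SCS replicate 3.

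The comparison of SCI + SCS with Sham shares the SCI + SCS libraries with the second comparison and the Sham libraries with the first. Oprl1 was lower in SCI + SCS than in Sham, with a log2 fold change of -1.08 (SE 0.30, 95% interval -1.81 to -0.35, edgeR adjusted p = 0.0380), or 2.11-fold. Among the 4 members tested it was the 1 called, beside 32.4% of 17640 genes, and 53.2% of genes had groups that did not overlap. The call was lost in 8 of 16 other settings. Among them were the fits without Sham replicate 1 (-0.79, edgeR adjusted p = 0.0778), without Sham replicate 2 (-1.08, edgeR adjusted p = 0.1004) and without SCI + SCS replicates 1, 2 or 3 (edgeR adjusted p = 0.127, 0.114 and 0.0556).

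Pnoc had a log2 fold change of 0.47 between SCI + SCS and Sham (SE 0.25, 95% interval -0.14 to 1.08, edgeR adjusted p = 0.195). Oprk1 had one of -0.21 (SE 0.24, 95% interval -0.78 to 0.37, edgeR adjusted p = 0.528), which turned to 0.074 without Sham replicate 1. Oprd1, which passed the filter only here, had one of -0.52 with a wide interval (SE 1.08, 95% interval -3.09 to 2.06, edgeR adjusted p = 0.731), and the sign turned without Sham replicate 3 (0.035) or SCI + SCS replicate 1 (0.076).

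**Figure D3:**
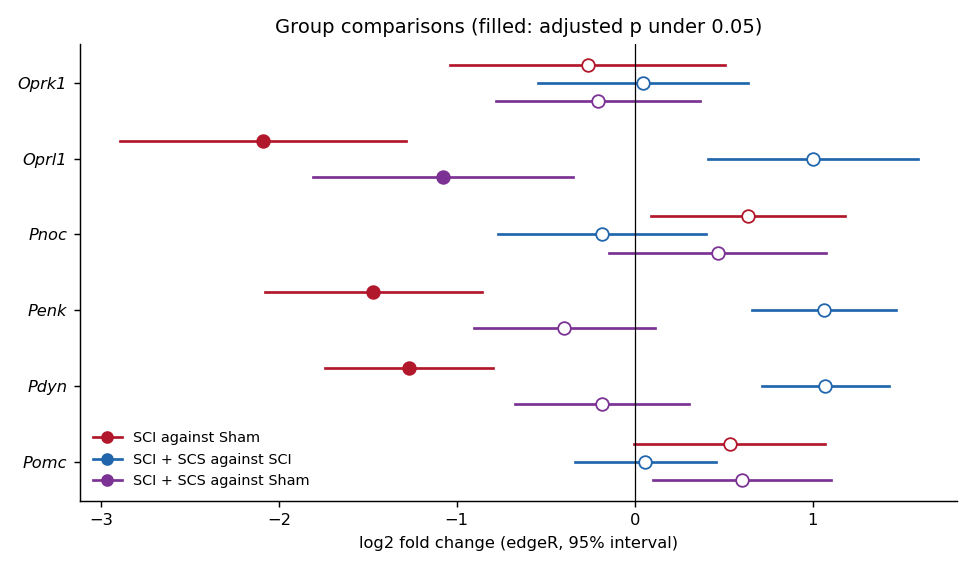
The log2 fold change (x axis) with its 95% interval from edgeR for 3 members and the 3 opioid peptide precursor genes (y axis) in the 3 comparisons, with filled symbols for an adjusted p under 0.05. The filled symbols are Oprl1 at -2.09 and -1.08, Penk at -1.47 and Pdyn at -1.27.

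The ratio of the nociceptin precursor to its receptor was computed after the values of both were seen. Pnoc FPKM divided by Oprl1 FPKM was 3.83, 5.49 and 12.6 in Sham, 47.6, 32.9 and 47.0 in SCI and 29.9, 17.4 and 11.2 in SCI + SCS. All SCI libraries were above all others, while Sham replicate 3 lay above SCI + SCS replicate 3. The ratio was 6.52-fold higher in SCI than in Sham and was 0.429 times the SCI value in SCI + SCS (two-sided exact permutation test on log2 ratios, p = 0.1 each, the smallest that 3 against 3 libraries allow). Between SCI + SCS and Sham it differed 2.80-fold (exact permutation p = 0.2).

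Neuron markers moved with the groups, so each member was also set against the mean log2 level of 8 general neuron markers, among them Rbfox3, Snap25 and Map2, in the same library. That mean was 2.54 log2 units lower in SCI than in Sham and 1.20 higher in SCI + SCS than in SCI. Oprl1 minus the markers was -3.67, -3.83 and -3.78 in Sham, -3.46, -3.19 and -3.09 in SCI and -3.28, -3.61 and -3.47 in SCI + SCS, a span of less than 1 log2 unit over all 9 libraries.

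Relative to the neuron markers, the SCI minus Sham difference was 0.51 for Oprl1, 2.29 for Oprk1 and 3.20 for Pnoc (two-sided exact permutation p = 0.1 each, the smallest possible). For Oprl1 the sign depended on the reference. It was -0.051 with the median marker, where the groups overlapped. With 8 excitatory dorsal horn neuron markers it was -0.45 and the groups did not overlap (exact permutation p = 0.1). For Oprk1 and Pnoc it stayed positive with every reference, at 1.73 and 2.63 with the median marker. For Oprk1 it was smallest, at 1.33, with the excitatory markers. Pnoc differed in the same direction against 5 inhibitory neuron markers such as Gad1 and Slc6a5 (3.31, exact permutation p = 0.1), all 5 of which were lower in SCI.

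Between SCI + SCS and SCI the differences relative to neuron markers were -0.21 for Oprl1 (exact permutation p = 0.2), -1.12 for Oprk1 (p = 0.2, exact) and -1.41 for Pnoc (p = 0.1, exact). With the excitatory markers as reference that of Oprl1 was 0.0073, and with the median marker 0.046. That of Oprk1 was -0.91 with the excitatory markers, where the groups did not overlap (exact permutation p = 0.1), and -0.87 with the median marker (exact permutation p = 0.4). Between SCI + SCS and Sham the differences were 0.31 for Oprl1, 1.17 for Oprk1 and 1.79 for Pnoc (exact permutation p = 0.1 each). Oprl1 again turned, to -0.0044 with the median marker, where the groups overlapped, and -0.45 with the excitatory markers (exact permutation p = 0.1). Oprk1 was 0.86 with the median marker and 0.42 with the excitatory markers (exact permutation p = 0.1 each). Pnoc was 1.48 with the median marker, where the groups overlapped (exact permutation p = 0.2), and 1.77 with the inhibitory markers (exact permutation p = 0.1).

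**Figure D4:**
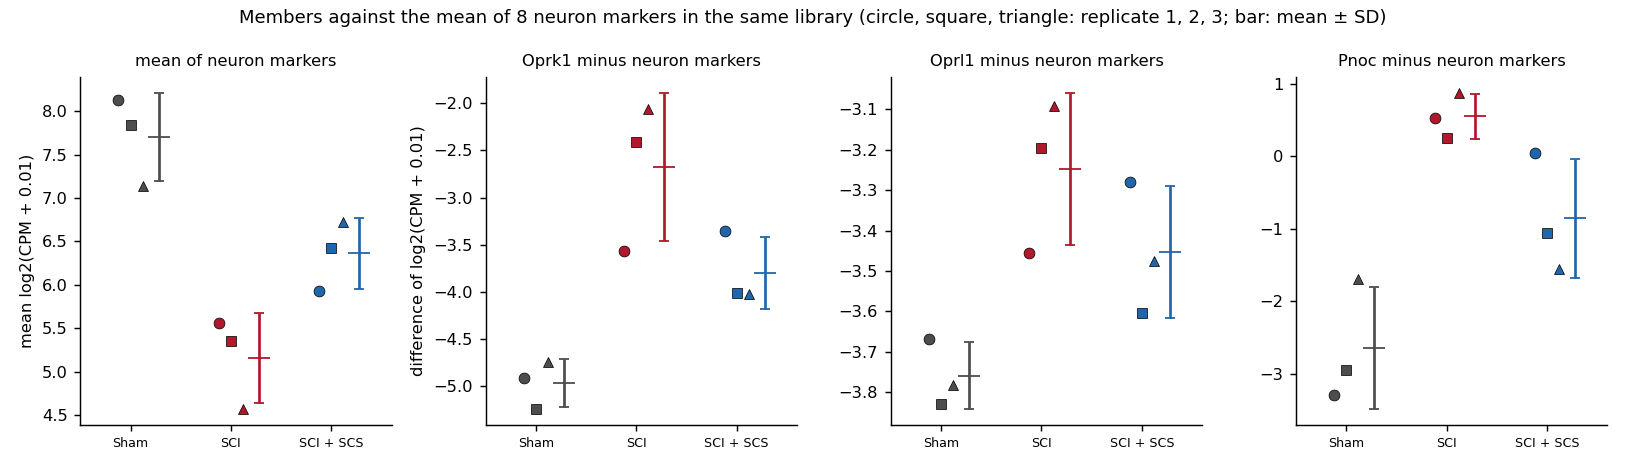
The mean log2(CPM + 0.01) of 8 neuron markers in each library (left) and the level of Oprk1, Oprl1 and Pnoc minus that mean (log2 units), by group, with a symbol for each replicate and the mean and SD of 3 libraries. The y axes differ and do not start at 0: Oprl1 spans -3.83 to -3.09, while Pnoc runs from -3.30 in Sham to 0.88 in SCI.

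Markers of other cell types were also called in SCI against Sham. In that comparison 49.4% of all genes tested were called, 24.3% higher and 25% lower. Lower in SCI were 8 of 8 excitatory dorsal horn neuron, 5 of 5 inhibitory neuron, 3 of 4 motor neuron, 2 of 4 sensory ganglion neuron, 6 of 6 oligodendrocyte and 2 of 6 astrocyte markers tested. Higher were 4 of 4 fibroblast, 4 of 5 T cell and 2 of 4 B cell markers. So were 3 of 6 microglia and macrophage and 3 of 4 Schwann cell markers. Of 4 endothelial cell markers 1 was higher and 1 lower. Of 5 skeletal muscle markers 3 were higher, but their summed level in SCI replicate 2 was 6.41 CPM, under every Sham library (7.64 to 41.4 CPM). In Sham the summed sensory ganglion neuron markers were 7.61, 159 and 5.58 CPM, in the order of replicates. In SCI they were 4.51 to 5.18 CPM. The summed oligodendrocyte markers were 52766 to 76480 CPM in Sham, 15584 to 28463 CPM in SCI and 26947 to 32562 CPM in SCI + SCS.

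Among the immune lists, the summed microglia and macrophage markers were 208 to 333 CPM in Sham, 777 to 1033 CPM in SCI and 729 to 867 CPM in SCI + SCS. The summed T cell markers were 1.53 to 2.99, 9.54 to 14.3 and 1.94 to 4.85 CPM. All 5 had a log2 fold change below 0 in SCI + SCS against SCI. There edgeR called 0 of the 5, and 4 had an unadjusted p under 0.05, against 24.2% of all genes tested. DESeq2 called 4 of the 5, against 11.8% of its genes. The summed B cell markers were 0.877 to 1.81, 3.23 to 5.12 and 2.51 to 3.002 CPM, and the fibroblast markers 293 to 1345, 2212 to 3280 and 1379 to 2289 CPM. The part of these lists in the levels of Pnoc and of the receptors was not tested.

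The genes whose pattern over the 9 libraries was most like that of Oprl1 were Dnm1 (dynamin 1, of synaptic vesicle recycling), Gabra5 (a GABA-A receptor subunit) and Prkar1b (a regulatory subunit of protein kinase A). Their root mean square differences from Oprl1 were 0.083, 0.085 and 0.088 on the centred log2 scale, against a median of 0.87 over 16278 genes. Matches were looser for Oprk1 (Lrrc10b 0.13, Garin3 0.13 and Trmt11 0.15, median 0.43) and Pnoc (Zfp1007l2, Med31 and Rpl37l1, 0.15 to 0.16, median 0.48). Garin3 was at a mean of only 0.226 CPM in Sham, 0.085 CPM in SCI and 0.117 CPM in SCI + SCS. At such levels this scale is nearly flat, so the match of Garin3 to Oprk1 says little. Group means were also low for Lrrc10b (0.70 to 0.81 CPM), Zfp1007l2 (0.72 to 1.32 CPM) and Rpl37l1 (0.99 to 1.94 CPM). The 0.5 CPM added before the log damps their differences too.

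The classical opioid peptide precursors were measured beside the receptors. Penk, the enkephalin precursor, was at 226.5, 161 and 130.2 CPM in Sham, 69.99, 71.3 and 48.2 CPM in SCI and 115, 133 and 145 CPM in SCI + SCS. It fell in SCI by 1.47 on the log2 scale (SE 0.25, edgeR adjusted p = 0.00478). Its SCI + SCS libraries were all above SCI, as in 29.6% of tested genes in either direction, and overlapped with Sham. Its log2 fold change was 1.06 in SCI + SCS against SCI (edgeR adjusted p = 0.0719, DESeq2 3.67e-06) and -0.39 against Sham (edgeR adjusted p = 0.188), which became -0.57 and passed without Sham replicate 3 (edgeR adjusted p = 0.0495).

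Pdyn, the dynorphin precursor, was at 24.6, 18.1 and 15.7 CPM in Sham, 7.59, 8.85 and 8.12 CPM in SCI and 14.03, 19.02 and 18.2 CPM in SCI + SCS. It fell in SCI by 1.27 on the log2 scale (SE 0.20, edgeR adjusted p = 0.00342). The SCI + SCS libraries were again all above SCI, as in 29.6% of tested genes in either direction, and overlapped with Sham. The log2 fold changes were 1.07 against SCI (edgeR adjusted p = 0.0719, DESeq2 3.18e-07) and -0.18 against Sham (edgeR adjusted p = 0.509). Without SCI + SCS replicate 1 the first was 1.20 and passed (edgeR adjusted p = 0.0499). The calls of both precursors against Sham were lost when SCI replicates 1 and 3 were left out together (edgeR adjusted p = 0.0953 each).

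Pomc, the precursor of beta-endorphin, was far lower, at 2.05 to 3.07 CPM in Sham, 3.49 to 4.07 CPM in SCI and 3.66 to 4.44 CPM in SCI + SCS. Its log2 fold change was 0.53 in SCI (edgeR adjusted p = 0.0880), 0.059 in SCI + SCS against SCI (edgeR adjusted p = 0.860) and 0.61 against Sham (edgeR adjusted p = 0.0663). Both injured groups lay above Sham in every library. Groups did not overlap in 63.6% of tested genes in SCI against Sham and in 53.2% in SCI + SCS against Sham.

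Of 63 measured genes in 9 lists of peptide precursors, processing and degrading enzymes, G protein subunits and effectors, 48 were called in SCI against Sham, 9 higher and 39 lower, where 24.3% of all genes tested were higher and 25% lower. The median log2 fold change of the 63 was -0.82, against 0.015 over all genes tested. The 4 processing genes were all lower, including the convertase genes Pcsk2 (-2.10) and Pcsk1 (-1.61), the Pcsk2 chaperone Scg5 (-1.71) and Cpe (-0.72). Among degrading enzymes, Npepps (-0.94) and Ece2 (-0.79) were lower, and the aminopeptidase N gene Anpep (3.42) and the neprilysin gene Mme (0.74) were higher.

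Downstream of the receptors, 8 of 14 Gi/o protein subunit genes were lower in SCI and 3 higher, with Gng4 at -3.18, Gnai1 at -2.44, Gnao1 at -1.34 and Gnb5 at -0.99. Of 7 effector channel genes 6 were lower, among them Kcnj3 (-3.00) and Kcnj6 (-1.50), which encode inwardly rectifying potassium channels, and the calcium channel genes Cacna1b (-1.86) and Cacna1e (-1.52). Of 8 adenylyl cyclase genes 6 were lower, led by Adcy1 (-1.26), Adcy5 (-1.22), Adcy8 (-1.07) and Adcy3 (-1.01). In this comparison 25% of all genes tested were lower and 24.3% higher.

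Regulators of receptor signalling moved in both directions in SCI, where 24.3% of all genes tested were higher and 25% lower. RGS proteins end G protein signals, and their list of 10 genes also held Rgs7bp, whose product binds some of them. Of these 10 genes 6 were lower, with Rgs7bp at -2.71, Rgs8 at -2.34, Rgs7 at -1.93 and Rgs17 at -1.91, and 2 were higher. Of 7 receptor kinase and arrestin genes 3 were lower (Arrb1 -1.48, Grk3 -1.34 and Grk2 -0.77) and Grk4 was higher (0.63). The 4 called were 57.1% of that list, near the 49.4% called over all genes tested. Of the 4 trafficking partners, Gprasp1 (-1.61) and Gprasp2 (-1.56) were lower and Rtp4, whose product aids opioid receptor export to the cell surface, was higher (2.12).

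In SCI + SCS against SCI, 0 of the 63 genes passed with edgeR's quasi-likelihood test, 35 had an unadjusted p under 0.05 (55.6%, against 24.2% of all genes tested) and DESeq2 called 23 (36.5%, against 11.8%). The log2 fold change was above 0 for 47 of the 63, with a median of 0.44 against -0.0055 over all genes tested. The median was 0.988 over 8 general neuron, 1.05 over 8 excitatory and 1.31 over 5 inhibitory neuron markers. Of these markers 4, 7 and 5 had an unadjusted p under 0.05. In SCI + SCS against Sham 26 of the 63 were called, 6 higher and 20 lower. Their median was -0.40 over the 63, against 0.0077 over all genes, of which 16.2% were called in each direction. Of the genes named by rule, those lower were Pcsk1 (-1.35), Scg5 (-1.10), Pcsk2 (-0.999) and Npepps (-0.64) among enzymes and their partners, and Gnai1 (-1.48), Gnb4 (-1.17), Grk3 (-1.26), Adcy5 (-0.88) and Adcy8 (-0.40) among signalling genes. Also lower were the potassium channel gene Kcnj3 (-1.46), Rgs7bp (-1.84), Rgs8 (-1.14), Rgs17 (-1.10), Gprasp1 (-0.83) and Gprasp2 (-0.83). Higher were Anpep (2.35), Rtp4 (1.51), Gnai2 (0.81), Gnb2 (0.40) and Rgs19 (0.34). That count was 8 without Sham replicate 2, 17 without Sham replicate 1, and 8, 11 and 17 without SCI + SCS replicates 1, 2 and 3. It rose without Sham replicate 3. The number called over all genes also varied between these fits, with its range given in the last section. The share of pathway genes was not set against it in each fit.

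**Figure D5:**
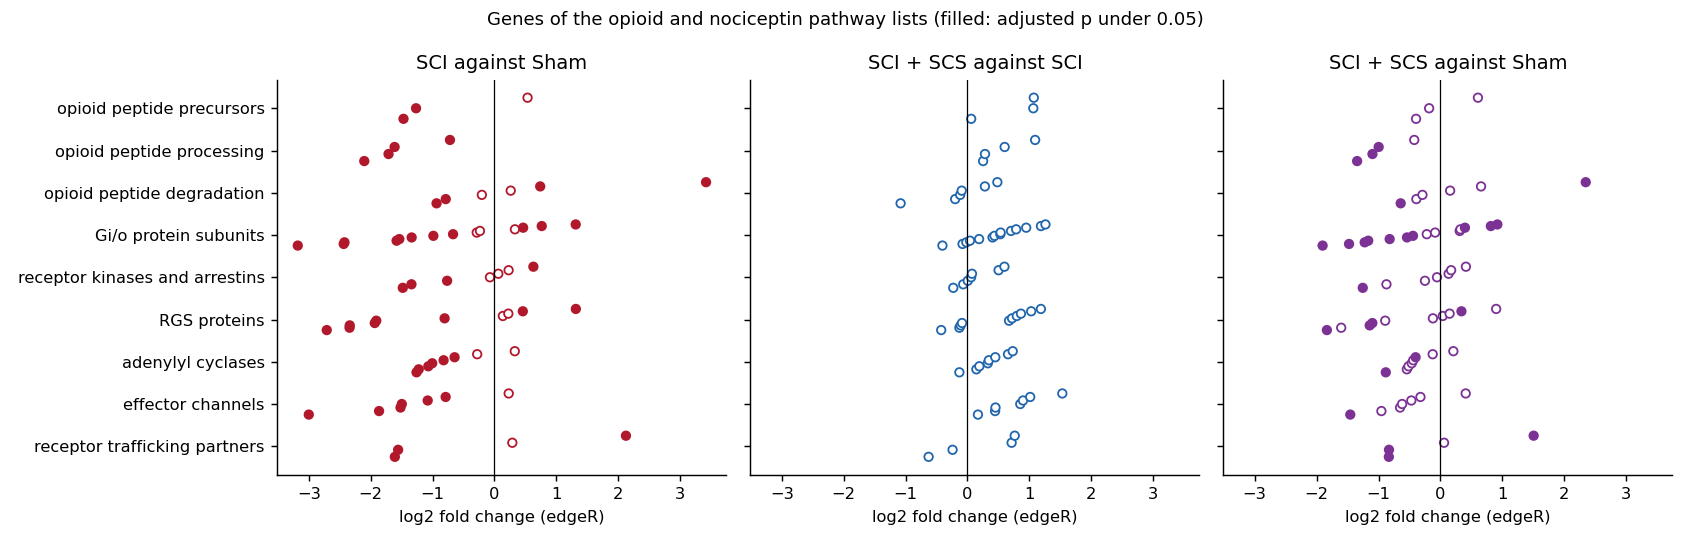
The log2 fold change (x axis, 1 scale for all panels) of each of 63 genes in 9 lists (y axis) in the 3 comparisons, with filled symbols for an edgeR adjusted p under 0.05. Most genes lie left of 0 in SCI against Sham, where 39 were lower, and 47 lie right of 0 in SCI + SCS against SCI, where none was called.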

How the data were processed

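Poly(A) RNA of 9 spinal cord samples, 3 per group and all labelled as 1 batch, was sequenced. The deposited files hold raw read counts per gene and, in a second table, FPKM that the authors computed. The submitters' processing notes name fastp 0.23.2, HISAT2 2.2.1 and the build mRatBN7.2, and the counting program and its strand setting are not given in the sources used here. No column was left unmapped. Whole-tissue libraries were taken as replicates by label, so p-values measure the spread between these libraries.

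The members and gene lists were chosen with earlier results of these data known. Counts were tested for each pair of groups with the edgeR 4.0.16 quasi-likelihood test (R 4.3.3; TMM scaling, default filter on low counts), with Benjamini-Hochberg adjustment over all genes tested and a threshold of 0.05. Levels are TMM-scaled CPM over 9 libraries or deposited FPKM. Ratios to markers used log2(CPM + 0.01) and two-sided exact permutation tests, of which 3 against 3 allow 10 splits and no p under 0.1. Alternatives used DESeq2 1.42.0, limma 3.58.1 on log2(FPKM + 0.1) or log2(FPKM + 1), other filters, a replicate block and each library left out. The scripts were tested on simulated data. Counting intervals are at 95% (exact, Poisson) and the floor is 3 counts; both cover counting error only, since amplified reads that carry no molecular identifiers can be copies of 1 molecule.

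Named by rule were the members, the 3 opioid peptide precursors, up to 4 genes of each other pathway list per comparison with the smallest p whose groups did not overlap, and the 3 genes most alike to each member on centred log2(CPM + 0.5). For Oprm1 and Oprd1 that scale is nearly flat, and no alike genes are named. Of 64 pathway genes 63 were measured. Scn10a and marker examples were chosen after their values were seen.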

Additional observations from a re-analysis of the deposited data

How the results depend on the processing

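The fall of Oprl1 in SCI against Sham kept its direction and its call in 16 of 17 other settings, with log2 fold changes from -2.34 to -1.37; leaving out 1 library at a time gave -2.34 to -1.80, and leaving out SCI replicates 1 and 3 together, an alternative chosen after seeing the data, gave -1.87 without a call, 848 genes called, 0 members and 4 pathway genes. Leaving out 1 library gave 1 to 2 members called. Pnoc in SCI against Sham was called with DESeq2 (0.64), with limma on log2(FPKM + 0.1) with a filter (0.65) or without one (0.65) and on log2(FPKM + 1) (0.63), which raised the members called from 1 to 2 in each, and it ranged from 0.42 to 0.85 with 1 library left out. Oprk1 ranged from -0.53 to 0.018 in that comparison with 1 library left out and was 0.15 without SCI replicates 1 and 3.

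In SCI + SCS against SCI, DESeq2 called Oprl1 (0.99), 1 member, 23 pathway genes and 2603 genes in all; limma called 19 genes (log2(FPKM + 0.1)), 31 (log2(FPKM + 1)) and 5 (no filter), and a minimum of 10 counts in every library left 0. With 1 library left out the genes called ranged from 0 to 169 and the pathway genes from 0 to 2. Without SCI replicates 1 and 3 there were 3 genes called and Oprk1 was -0.38 and Pomc -0.019. With 1 library left out Oprk1 ranged from -0.18 to 0.30, being below 0 without SCI replicate 1 and, at -0.036, without SCI + SCS replicate 3. Pnoc ranged from -0.46 to 0.016 and Pomc from -0.021 to 0.12.

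In SCI + SCS against Sham, Oprl1 was not called with limma on log2(FPKM + 1) (-0.75) or without a filter (-0.97), each leaving 0 members, and ranged from -1.32 to -0.79 with 1 library left out, with 0 to 1 members, 2149 to 6637 genes and 8 to 38 pathway genes called. With 1 library left out Oprk1 ranged from -0.37 to 0.074, Pdyn from -0.32 to 0.024 and Oprd1 from -1.22 to 0.076. Relative to neuron markers, Oprl1 turned to -0.051 (median marker) and -0.45 (excitatory markers) in SCI against Sham. In the same order it turned to 0.046 and 0.0073 in SCI + SCS against SCI. In SCI + SCS against Sham it turned to -0.0044 and -0.45. The cause of these shifts was not tested.

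The labels give the same replicate numbers in each group and do not say that the numbers pair the samples. Same-numbered deviations from the group means correlated at -0.06 to 0.24 in SCI against Sham. The range was -0.20 to 0.002 in SCI + SCS against SCI and -0.33 to 0.02 in SCI + SCS against Sham. Differently numbered libraries were not correlated, so these values cannot decide whether the samples were paired. With the replicate block Oprl1 had -2.05 in SCI against Sham (edgeR adjusted p = 0.00232), 1.001 in SCI + SCS against SCI (edgeR adjusted p = 0.237) and -1.04 in SCI + SCS against Sham (edgeR adjusted p = 0.135), where 0 members, 5 pathway genes and 1259 genes were called; in SCI + SCS against SCI 0 genes were called. Depth limits Oprm1 and Oprd1, whose counts per library were 0 to 31.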
